A study of Mus musculus with 22 samples.

Results

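Collagens are the main fibrous proteins of the extracellular matrix, and each is a triple helix wound from chains that separate genes encode. The 39 mouse genes for collagen chains described here were found on the array by their symbols, through the accession of each probe. Of these, 37 had a probe (53 probes in all) among the 20018 genes that could be named on the array, and Col6a3 and Col12a1 had none matched. They were split by class into 11 fibrillar genes, 8 genes of basement membranes (the type IV chains, Col15a1 and Col18a1) and 20 others, of which 18 had a probe.

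The RNA came from FE1, a single epithelial cell line derived from the lung of a transgenic MutaMouse and grown in low serum medium with epidermal growth factor. Multi-walled carbon nanotubes of the Mitsui7 type were added for 24 h. Of the 22 arrays, 6 carried cells given 12.5 µg/ml (the low dose), 5 cells given 25 µg/ml (the medium dose) and 6 cells given 100 µg/ml (the high dose), beside 5 of control cells at 0 µg/ml. Each array carried the sample in Cy5 and a common reference RNA from 11 mouse cell lines in Cy3. A level is therefore the log2 ratio of sample to reference, on which 1 unit is a factor of 2, and levels were compared between doses and not between genes. The question put to these genes was at which dose, and in which class, their RNA changed.

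Chains of types I, III and V are made as procollagens, hydroxylated and glycosylated in the endoplasmic reticulum, trimmed outside the cell and crosslinked into the fibrils that give lung its tensile strength. Type IV collagen forms instead the sheet of the basement membrane on which epithelial cells sit, type VI forms beaded microfilaments around cells, and type VIII forms short-chain networks. Fibroblasts are known as the main source of fibrillar collagen, and excess deposition of types I and III is the hallmark of lung fibrosis.

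Promoter sequences were examined because 5 members, Col1a1, Col1a2, Col3a1, Col6a1 and Col8a1, were lower at every dose (below), and 4 of these have a window in the table of RefSeq promoters (build GRCm38.p6). The 250 bases before the annotated start of each are shown 5′ to 3′ on the strand of the gene, Col1a2 from chr6:4505368-4505617 (+ strand), Col3a1 from chr1:45311288-45311537 (+ strand), Col6a1 from chr10:76726045-76726294 (- strand) and Col8a1 from chr16:57754738-57754987 (- strand). Capitals mark the letters CCAAT (known as the CCAAT box), the letters TATAAA (known as a TATA box) and the letters GGGCGG (known as a GC box) on either strand, and no match overlaps another here.
Col1a2: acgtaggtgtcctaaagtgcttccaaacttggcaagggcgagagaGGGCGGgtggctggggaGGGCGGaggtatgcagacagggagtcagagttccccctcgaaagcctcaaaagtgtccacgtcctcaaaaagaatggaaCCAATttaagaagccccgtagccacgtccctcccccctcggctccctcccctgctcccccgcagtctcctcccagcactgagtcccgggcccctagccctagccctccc
Col3a1: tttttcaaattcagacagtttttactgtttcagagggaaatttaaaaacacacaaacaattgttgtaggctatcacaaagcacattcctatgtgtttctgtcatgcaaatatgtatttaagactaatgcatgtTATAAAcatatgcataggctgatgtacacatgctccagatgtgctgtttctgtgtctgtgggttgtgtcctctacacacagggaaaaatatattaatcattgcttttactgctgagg
Col6a1: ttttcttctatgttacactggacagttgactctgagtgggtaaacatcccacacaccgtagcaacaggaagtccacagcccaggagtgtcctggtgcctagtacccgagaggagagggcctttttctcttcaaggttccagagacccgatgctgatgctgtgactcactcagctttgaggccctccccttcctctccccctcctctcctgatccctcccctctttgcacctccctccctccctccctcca
Col8a1: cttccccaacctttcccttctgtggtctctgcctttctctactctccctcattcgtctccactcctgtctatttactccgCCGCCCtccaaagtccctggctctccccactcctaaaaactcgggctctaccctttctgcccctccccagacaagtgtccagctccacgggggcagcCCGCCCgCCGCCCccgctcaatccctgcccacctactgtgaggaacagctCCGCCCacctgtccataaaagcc
The windows differed in what they hold. Col1a2 has 1 CCAAT and 2 GGGCGG, Col3a1 has only 1 TATAAA, Col6a1 has none of these letters, and Col8a1 has 4 GGGCGG. The G and C content was 62% for Col1a2, 35.2% for Col3a1, 56% for Col6a1 and 60.8% for Col8a1. Over all 32851 promoter windows of this length, 33.8% hold CCAAT, 12.4% TATAAA and 32.7% GGGCGG. Among the 35 windows of 32 collagen genes in the table, 12 hold CCAAT, 5 hold TATAAA and 19 hold GGGCGG. A match describes the letters only. Col1a1, Col2a1, Col4a3, Col5a2, Col9a3, Col12a1 and Col14a1 are not in the table.

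Between 21604 and 38146 of 55681 probes were detected on an array, that is, brighter than the negative control spots. No probe was saturated in Cy5, and saturation of the Cy3 reference was not examined. On the main axis of variation (the first principal component after the slide means were removed) low dose replicate 1 lay at 23.3, against -14.8 to 2.60 for the other 5 low dose arrays. Medium dose replicate 2 lay at -5.71, against 9.37 to 28.9 for the other 4. Each of the 2 arrays thus lay within the range of the other arrays of the opposite dose. The labels were kept as given, and whether these 2 labels are exchanged was not tested, so counts and changes at the low and medium dose that move without both arrays are given with and without them. Detection of markers bore out the labelled epithelial type only in part and could not settle it. Of 8 epithelial markers 5 were detected, Krt8, Krt18 and Krt19 far below the reference, and Cdh1, the epithelial cadherin, was detected on no array. All 10 fibroblast or mesenchymal markers were detected on at least 4 arrays of a group, Vim, Acta2, S100a4 and Cdh2 among them. Of 7 alveolar type II markers 4 were detected, and Sftpa1 and Slc34a2 were detected on no array. By the same rule 4 of 5 alveolar type I, 4 of 6 haematopoietic and 3 of 5 endothelial markers with a probe were detected. Detection alone thus does not tell the cell type. Ratios to the reference also differed within lists, as the control means of epithelial Krt7 (-0.31) and mesenchymal Thy1 (-2.76) show.

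Every collagen gene called against control was lower in exposed cells, and none was called higher at any dose. To be called, a gene had to reach an adjusted p of 0.05 or less in limma's moderated test, differ by 1.5-fold or more, and be detected on 4 or more arrays of 1 of the groups. Of 37 collagen genes 6 were called lower at the low dose, where 2.03% of all 20018 genes were. At the medium dose 9 of 37 were called lower, where 3.12% of all genes were. At the high dose 11 of 37 were called lower, where 4.49% of all genes were. Counting only genes detected in the comparison, 23.1%, 37.5% and 44.0% of collagen genes were called lower at the low, medium and high dose, beside 3.00%, 4.70% and 6.44% of all detected genes. The 3 comparisons share their 5 control arrays. The median log2 change of the 37 genes was -0.083, -0.16 and -0.21 in order of dose, beside 0.0058, 0.00076 and 0.0027 over all genes, and 23 of the 37 lay below 0 at the high dose. By class the high dose median was -0.53 for the fibrillar, -0.29 for the basement membrane and 0.0067 for the other genes, of which 8 of 18 lay below 0. Over detected genes alone it was -0.61 for 8 fibrillar, -0.76 for 5 basement membrane and -0.10 for 12 other genes. The order of the fibrillar and basement membrane classes therefore depends on whether undetected genes are counted. Without low dose replicate 1 and medium dose replicate 2 the counts were 5, 10 and 11. After median centring of each array in place of loess they fell to 2 and 3 at the low and medium dose. That setting also lost the high dose calls of Col4a5, Col4a6 and Col18a1. Without the 8 arrays of slide 1 the low dose count was 3. There Col1a1 (adjusted p = 0.061), Col1a2 (0.076), Col3a1 (0.074) and Col6a1 (0.16) missed the threshold and Col4a6 (0.020) gained a call.

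Each class held called genes. At the high dose the type VI chains and the fibrillar genes of types I and III had the largest drops of the called genes, and at the low dose Col4a5 did. At the high dose 4 of 11 fibrillar genes were called (Col1a1, Col1a2, Col3a1, Col5a3), 3 of 8 basement membrane genes (Col4a5, Col4a6, Col18a1) and 4 of 18 others (Col6a1, Col6a2, Col8a1, Col16a1). All 3 basement membrane calls at that dose were lost after median centring. At the low dose the called genes were Col1a1, Col1a2, Col3a1, Col4a5, Col6a1 and Col8a1. At the medium dose Col4a6, Col6a2, Col16a1 and Col18a1 were called and Col4a5 was not. The study itself named Col1a1, Col1a2 and Col3a1 on these samples, so their direction is not independent evidence. It also measured Col1a2 and Col3a1 by RT-qPCR. There Col3a1 was lower at each of these doses, with its largest drop at the low dose. Col1a2 was listed as significantly lower by RT-qPCR at the low dose and not at the medium or high dose.

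**Figure D1:**
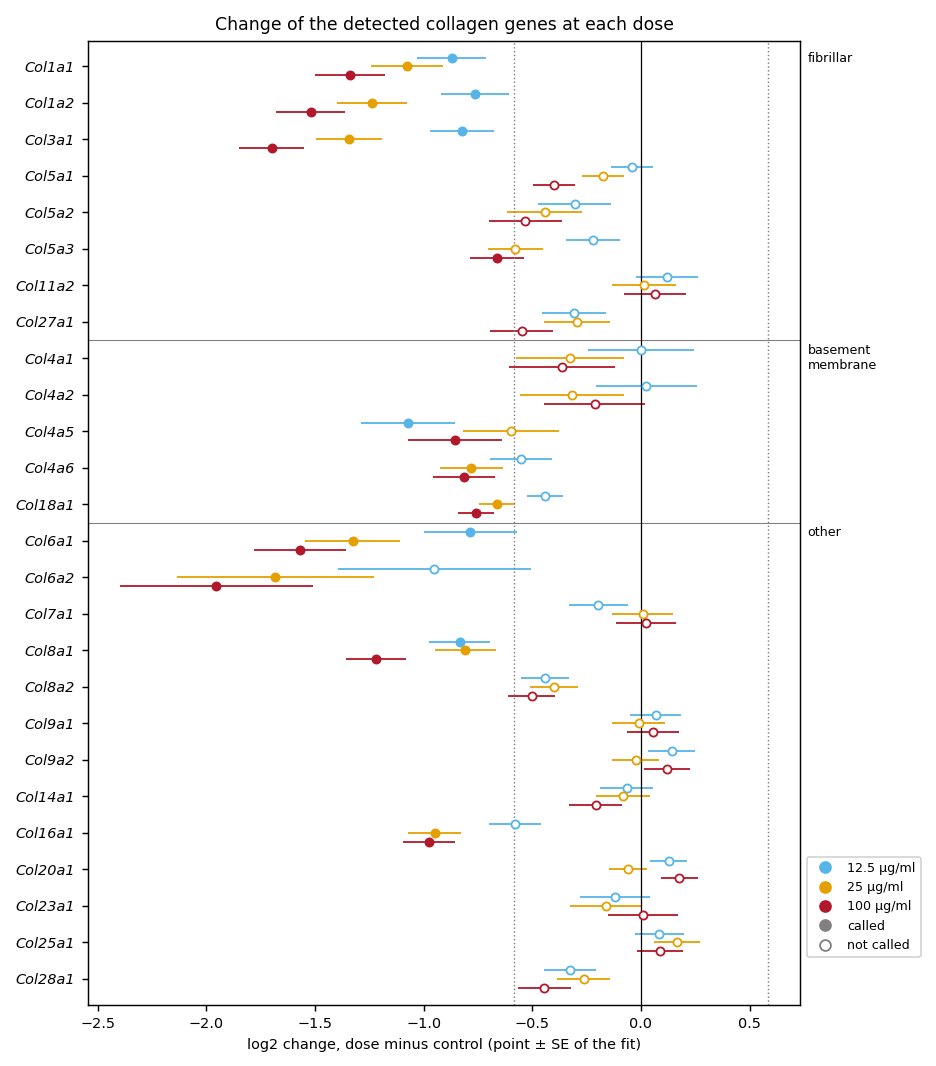
Change of each of the 26 detected collagen genes against control. The x axis is the log2 change, dose minus control, with the standard error of the fit, and each gene has 1 point per dose (blue 12.5, orange 25, red 100 µg/ml), filled when called. Dotted lines mark a change of 1.5-fold. All filled points lie to the left of 0.

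Col1a1 and Col1a2 encode the 2 chains of type I collagen, the principal collagen of fibrils. The log2 ratio of Col1a1 in the control arrays was 2.11, 1.57, 1.69, 1.61 and 1.84. In the low dose arrays it ran from 0.43 through a median of 0.90 to 1.45, in the medium dose arrays it was 0.57, 0.54, 0.92, 0.65 and 0.75, and in the high dose arrays it ran from 0.20 through 0.33 to 0.89. Every exposed array lay below every control array. The change was -0.87 ± 0.16 (SE of the fit, adjusted p = 0.0028) at the low, -1.08 ± 0.16 (adjusted p = 0.00028) at the medium and -1.34 ± 0.16 (adjusted p = 1.1e-05) at the high dose, the last a drop of 2.53-fold.

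Col1a2 behaved likewise. Its control arrays read 1.80, 0.90, 1.49, 1.22 and 0.89, and its medium dose arrays 0.32, 0.09, 0.12, -0.16 and -0.25. The low dose arrays ran from 0.17 through 0.47 to 0.72, and the high dose arrays from -0.71 through -0.30 to 0.12. No exposed array reached the lowest control array. The change of Col1a2 was -0.76 ± 0.16 (adjusted p = 0.0068), -1.24 ± 0.16 (adjusted p = 4.9e-05) and -1.52 ± 0.16 (adjusted p = 1.7e-06) in order of dose.

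Col3a1, the chain of type III collagen found with type I in elastic tissue, was lower at each dose too. The control arrays read 0.50, 0.62, 1.11, 1.32 and 1.99, and the medium dose arrays -0.78, -0.73, 0.05, 0.15 and 0.13. The low dose arrays ran from -0.74 through 0.49 to 1.19 and overlapped the controls, and the high dose arrays ran from -1.16 through -0.49 to 0.19. After adjustment for slide all 6 low dose arrays lay below every control array. Col3a1 changed by -0.82 ± 0.15 (adjusted p = 0.0023), -1.34 ± 0.15 (adjusted p = 1.1e-05) and -1.70 ± 0.15 (adjusted p = 2.1e-07), and the high dose drop was 3.25-fold. The low dose call was lost with no slide term and with slide as a random block (adjusted p of at most 0.51 over all alternatives).

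The type V chains, which join type I in fibrils and set their diameter, changed less. Col5a3 read 0.39, 0.31, 0.81, 0.91 and 1.00 in control and 0.18, -0.01, 0.13, -0.08 and 0.31 in medium dose arrays, and ran from -0.20 through 0.03 to 0.48 at the high dose. At the medium dose all 5 arrays, and at the high dose 4 of 6, lay below every control array. Its change at the high dose was -0.66 ± 0.12 (adjusted p = 0.0011). At the medium dose it was -0.58 (adjusted p = 0.0069), just under 1.5-fold, and it was called there when control replicate 1 or 2 or medium dose replicate 1, 2 or 3 was left out. The low dose change of Col5a3 was -0.22 (adjusted p = 0.46). Col5a1 had a high dose change of -0.40 (adjusted p = 0.0094, under the fold), and Col5a2 one of -0.53 (adjusted p = 0.057).

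**Figure D2:**
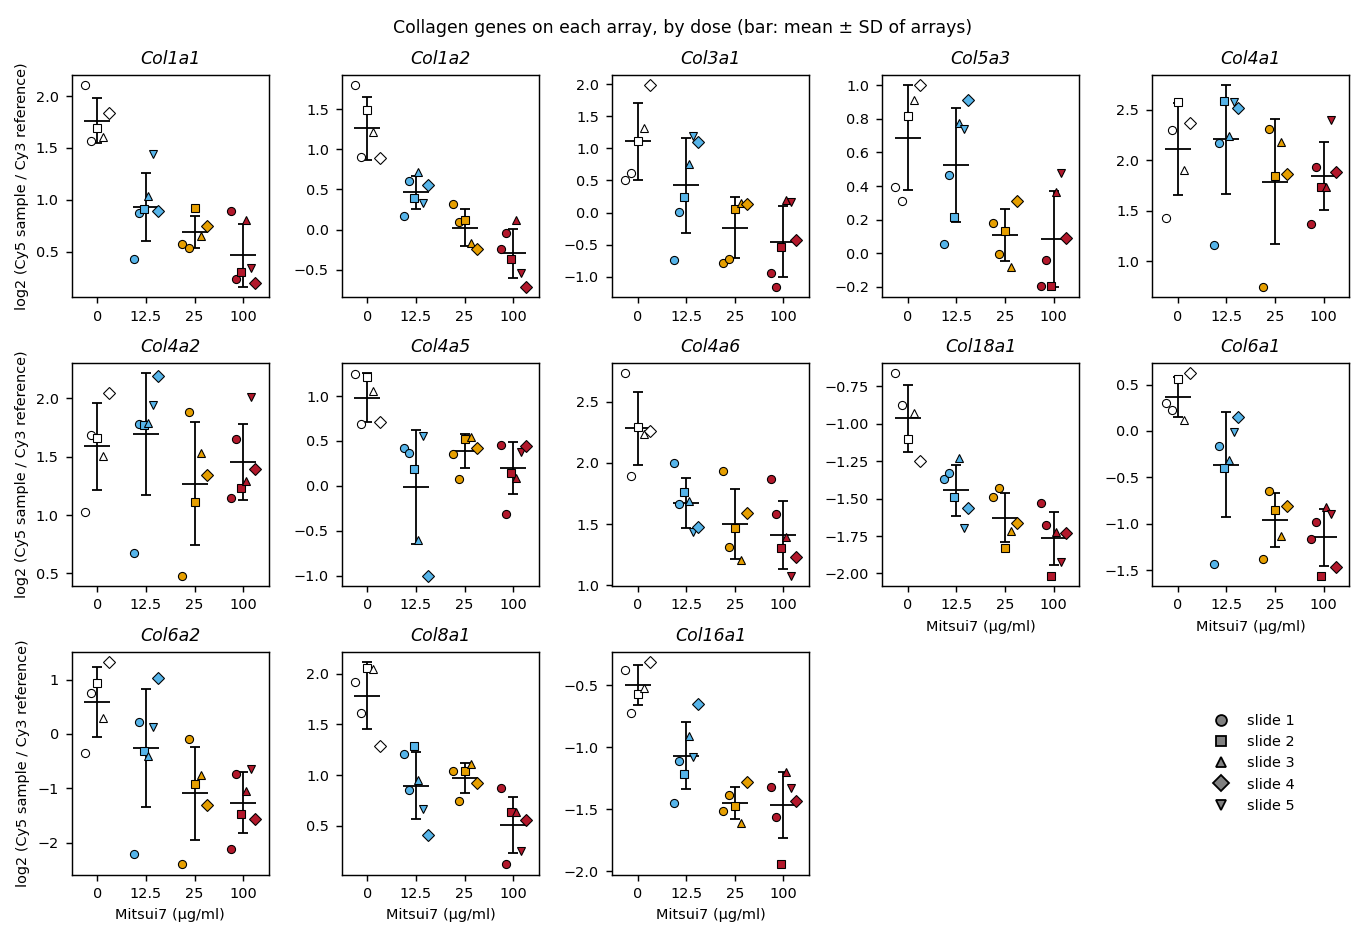
Log2 ratio of sample to reference of 13 collagen genes on each of the 22 arrays (y axis, a separate scale for each gene) against the Mitsui7 dose in µg/ml (x axis, categories not to scale). Symbols mark the slide, and lines give the mean ± SD of the arrays of a dose. Col1a1 and Col1a2 show no overlap of exposed arrays with control, while Col4a1 and Col4a2 overlap at every dose.

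The basement membrane genes divided. Col4a1 and Col4a2 encode the chains of the common type IV network, and their annotated starts lie 21 bases apart on opposite strands in GRCm38.p6. Col4a1 read 1.43, 2.30, 2.58, 1.90 and 2.37 in control and 0.75, 2.31, 1.85, 2.18 and 1.86 in medium dose arrays. It ran from 1.16 through 2.38 to 2.59 at the low and from 1.37 through 1.81 to 2.40 at the high dose. The groups overlapped, and replicate 1 was the lowest array of each of the 4 groups. The high dose change was -0.36 (95% interval -0.88 to 0.15, adjusted p = 0.52), so a drop of over 1.5-fold lies within the interval.

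Col4a2 followed the same picture. Its control arrays read 1.03, 1.69, 1.66, 1.51 and 2.05 and its medium dose arrays 0.48, 1.89, 1.11, 1.53 and 1.34. The low dose arrays ran from 0.68 through 1.78 to 2.19 and the high dose arrays from 1.15 through 1.34 to 2.01. The groups of Col4a2 overlapped at every dose. The high dose change was -0.21 (95% interval -0.70 to 0.27, adjusted p = 0.77), and neither gene was called under any of 41 alternative settings. Without both arrays that stand apart the medium dose change was -0.53 (adjusted p = 0.18) for Col4a1 and -0.51 (adjusted p = 0.11) for Col4a2, against -0.33 and -0.32 with them.

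Col4a5 and Col4a6, the chains of a second type IV network, were lower. Their annotated starts are also on opposite strands, 1343 bases apart. Col4a5 read 1.25, 0.69, 1.21, 1.06 and 0.71 in control, against 0.35, 0.08, 0.52, 0.55 and 0.43 at the medium dose. Col4a5 at the low dose ran from -1.0 through 0.28 to 0.55, with replicates 4 and 6 well below the rest, and the high dose arrays ran from -0.31 through 0.26 to 0.46. All exposed arrays of Col4a5 lay below every control array, but after adjustment for slide 1 medium and 1 high dose array overlapped them. It changed by -1.07 ± 0.22 (adjusted p = 0.0059) at the low and -0.86 ± 0.22 (adjusted p = 0.014) at the high dose, and by -0.60 (adjusted p = 0.15, not called) at the medium dose.

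Col4a6 read 2.73, 1.89, 2.29, 2.24 and 2.26 in control and 1.93, 1.31, 1.47, 1.21 and 1.59 at the medium dose. It ran from 1.44 through 1.68 to 2.00 at the low and from 1.08 through 1.35 to 1.87 at the high dose. The high dose arrays of Col4a6 lay below all controls, while 1 low dose and 1 medium dose array overlapped them. It changed by -0.78 ± 0.15 (adjusted p = 0.0019) at the medium and -0.81 ± 0.14 (adjusted p = 0.00062) at the high dose. The low dose change of -0.55 (adjusted p = 0.032) was under the fold and passed it without control replicate 2 (-0.70, adjusted p = 0.0027), low dose replicate 1 (-0.59, adjusted p = 0.040) or slide 1 (-0.62, adjusted p = 0.020). A second, dimmer probe of Col4a6 was not called, at -0.21 (adjusted p = 0.25) for the high dose. The medium and high dose calls of Col4a6 were lost after median centring and with the mean of its detected probes.

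Col18a1, whose C-terminal fragment is endostatin, read -0.66, -0.87, -1.10, -0.93 and -1.25 in control and -1.49, -1.43, -1.83, -1.72 and -1.66 at the medium dose. The high dose arrays ran from -2.01 through -1.72 to -1.53, and medium and high dose arrays did not overlap the controls. It changed by -0.66 ± 0.08 (adjusted p = 4.1e-05) at the medium and -0.76 ± 0.08 (adjusted p = 3.2e-06) at the high dose. The low dose arrays ran from -1.70 through -1.43 to -1.23 with a change of -0.44 (adjusted p = 0.0032, under the fold). A second probe of Col18a1 was called at all doses, with changes of -0.83, -0.75 and -0.90. After median centring the medium and high dose calls of the brightest probe were lost.

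Col6a1 and Col6a2 encode chains of type VI collagen, the microfibril around cells, and at the high dose had the largest drops of the called genes outside the fibrillar and basement membrane classes. Col6a1 read 0.30, 0.22, 0.56, 0.12 and 0.62 in control and -1.38, -0.65, -0.86, -1.13 and -0.81 at the medium dose, and ran from -1.56 through -1.07 to -0.82 at the high dose. Medium and high dose arrays of Col6a1 were below every control array. The change was -1.33 ± 0.22 (adjusted p = 0.00060) at the medium and -1.57 ± 0.21 (adjusted p = 4.4e-05) at the high dose.

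At the low dose Col6a1 ran from -1.44 through -0.24 to 0.15, where replicate 1 was the lowest. The low dose change was -0.79 ± 0.21 (adjusted p = 0.045), close to the threshold. Without low dose replicate 1 it was -0.56 (adjusted p = 0.082) and without both arrays that stand apart -0.57 (adjusted p = 0.067). The low dose call was lost under 27 of 41 alternatives, among them leaving out any of 14 of the 22 arrays, namely each control array, low dose replicates 1, 3, 4 and 5, medium dose replicates 3, 4 and 5, and high dose replicates 1 and 5, with an adjusted p of at most 0.20 over all alternatives.

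Col6a2 varied widely between replicates. It read -0.35, 0.75, 0.94, 0.29 and 1.32 in control and -2.40, -0.09, -0.91, -0.75 and -1.31 at the medium dose. It ran from -2.22 through -0.09 to 1.02 at the low and from -2.12 through -1.26 to -0.64 at the high dose. Replicate 1 was the lowest array of each group, and only the high dose arrays lay wholly below the controls. The high dose change was -1.95 ± 0.44 (adjusted p = 0.0063) and the medium dose change -1.68 ± 0.45 (adjusted p = 0.032). The high dose call was lost without slide 2 (adjusted p of at most 0.062 over all alternatives). The medium dose call was lost without any of control replicates 2, 3 and 5 and medium dose replicates 1, 3, 4 and 5 (adjusted p of at most 0.16 over all alternatives). The low dose change of -0.95 (adjusted p = 0.34) passed when a replicate block replaced slide in the model (adjusted p = 0.037), while without low dose replicate 1 it was -0.57 (adjusted p = 0.60). Without both arrays that stand apart Col6a2 changed by -0.60 (adjusted p = 0.49) at the low and -2.01 (adjusted p = 0.0015) at the medium dose.

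Col8a1, a chain of the short-chain type VIII network, fell at all doses. It read 1.92, 1.61, 2.05, 2.04 and 1.28 in control and 1.05, 0.74, 1.04, 1.11 and 0.92 at the medium dose, and ran from 0.41 through 0.90 to 1.28 at the low and from 0.12 through 0.60 to 0.87 at the high dose. No exposed array of Col8a1 exceeded a control array. The change was -0.84 ± 0.14 (adjusted p = 0.0011), -0.81 ± 0.14 (adjusted p = 0.0011) and -1.22 ± 0.14 (adjusted p = 5.5e-06) in order of dose.

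Col16a1, a fibril-associated collagen, read -0.37, -0.72, -0.57, -0.52 and -0.31 in control and -1.51, -1.38, -1.47, -1.61 and -1.28 at the medium dose. The high dose arrays ran from -1.94 through -1.38 to -1.20, clear of the controls, and the change was -0.95 ± 0.12 (adjusted p = 4.3e-05) at the medium and -0.98 ± 0.12 (adjusted p = 1.3e-05) at the high dose. The low dose arrays ran from -1.45 through -1.09 to -0.65 with a change of -0.58 (adjusted p = 0.0067), just under 1.5-fold. That change was called with the replicate number as a block (-0.61, adjusted p = 0.0031) and without any of control replicates 2, 4 and 5, low dose replicates 2, 3, 4 and 6 and high dose replicate 4. A second probe of Col16a1 was called at all doses (-0.64, -0.79 and -1.15), and the dimmest of its probes at none.

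The remaining 26 genes with a probe were not called at any dose. Of these 15 were detected on at least 4 arrays of a group (Col4a1, Col4a2, Col5a1, Col5a2, Col7a1, Col8a2, Col9a1, Col9a2, Col11a2, Col14a1, Col20a1, Col23a1, Col25a1, Col27a1 and Col28a1), with high dose changes from -0.55 to 0.18. Of the 15, Col5a1, Col8a2 and Col27a1 passed the adjusted p at the high dose and missed the fold, with changes of -0.40, -0.50 and -0.55. The brightest probe of the other 11, which include the cartilage chains Col2a1, Col10a1 and Col11a1 and the hemidesmosome collagen Col17a1, was detected on 4 arrays of no group (the rest are Col4a3, Col4a4, Col9a3, Col13a1, Col15a1, Col19a1 and Col24a1). Of these 11 Col4a4 was detected by another, dim probe, which was not called, at 0.23, -0.0070 and 0.21 in order of dose.

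Differences between doses were tested directly. From low to high dose 2 of 37 collagen genes were called lower, where 0.280% of all genes were. Col3a1 differed by -0.87 ± 0.14 (adjusted p = 0.0072) and Col1a2 by -0.76 ± 0.15 (adjusted p = 0.028). All 6 high dose arrays of Col1a2 lay below every low dose array, and those of Col3a1 did so after adjustment for slide. Neither call held under every setting, and that of Col1a2 was lost without any of low dose replicates 2 to 6 or high dose replicates 1, 3, 5 and 6. Col6a1 differed by -0.78 (adjusted p = 0.12), by -0.99 (adjusted p = 0.0051) without low dose replicate 1, and by -0.78 (adjusted p = 0.037) with the replicate number as a block. Between high and medium and between medium and low dose limma called 0 collagen genes, and 0 of all genes were called lower.

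**Figure D3:**
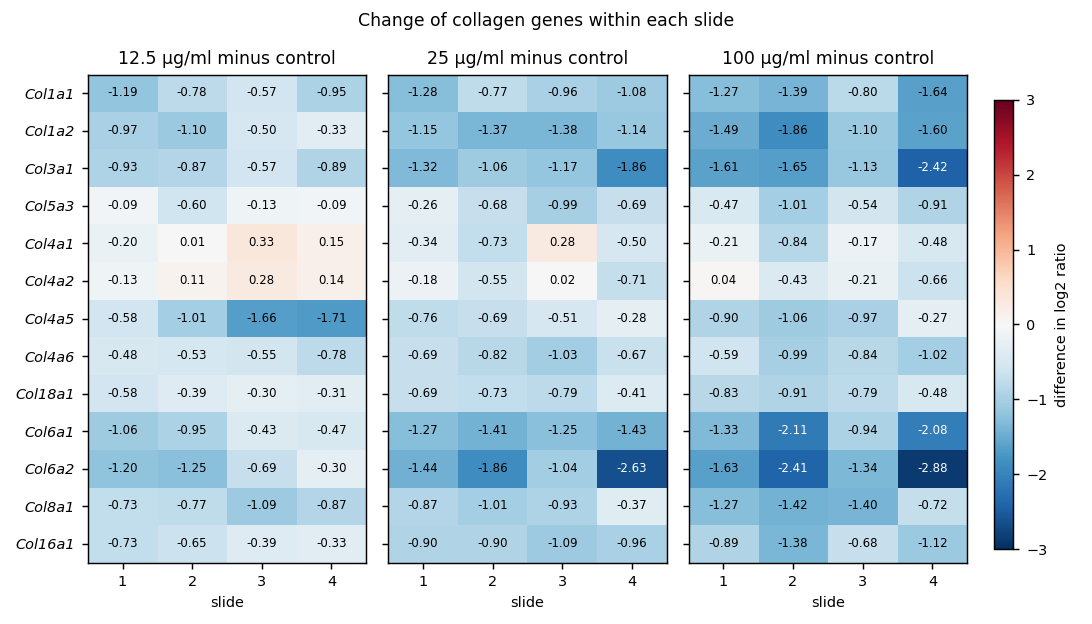
Difference in mean log2 ratio between exposed and control arrays within each of the 4 slides that hold controls, for 13 collagen genes (rows) and 3 doses (panels), blue where exposed arrays were lower. All 11 called genes, which were chosen by calls on these same arrays, were lower on 4 of 4 slides at each dose, and Col4a1 and Col4a2 had both signs.

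Differences were also taken within slides 1 to 4, each of which holds arrays of every dose. On slides 2, 3 and 4 each difference is 1 array minus 1 array. The 11 called genes were chosen by calls on these same arrays, in a fit that already holds slide. Shared signs within slides therefore give their calls no separate support. Slide 5 holds no control array and gives no value. On slides 1 to 4 the high dose difference of Col1a1 ran from -1.64 to -0.80, that of Col3a1 from -2.42 to -1.13 and that of Col6a1 from -2.11 to -0.94. Each of the 11 called genes was lower than control on 4 of 4 slides at every dose. Col4a1 was lower on 1 of 4 slides at the low, 3 of 4 at the medium and 4 of 4 at the high dose, and Col4a2 on 1, 3 and 3 of 4.

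Genes that make, trim, bind or break down collagen moved in both directions. The lists were written from general knowledge and hold 52 genes with a probe. At the high dose 16 were called lower and 4 higher, at the medium dose 8 and 3, and at the low dose 6 and 2. Of all genes 2.03%, 3.12% and 4.49% were called lower at the low, medium and high dose, and 1.56%, 2.82% and 3.85% higher. The same shares stand beside the counts of each list below, where a count of 1 gene is too small to be told from them. Without both arrays that stand apart the counts of lower genes among the 52 were 4, 11 and 15 and those of higher genes 2, 3 and 4 in order of dose. Without slide 2 the high dose count of lower genes was 10, and without slide 1 that of higher genes was 2.

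Among 20 genes that act on procollagen inside the cell, 9 were called lower at the high dose and 0 higher, with a median change of -0.56. P4ha3, P4ha2 and P4ha1 encode the catalytic subunits of prolyl 4-hydroxylase, whose product, hydroxyproline, holds the triple helix together, and P4hb its other subunit. P4ha3 read from 2.09 through a median of 2.61 to 2.75 in control and from -0.01 through 0.48 to 0.84 at the high dose, and no exposed array reached the controls. It changed by -1.18 ± 0.23 (adjusted p = 0.0044), -1.70 ± 0.23 (adjusted p = 9.6e-05) and -2.16 ± 0.23 (adjusted p = 2.2e-06). High dose changes were -1.31 for P4ha2, -1.17 for P4ha1 and -1.14 for P4hb, with adjusted p of at most 0.0060. Creb3l1, a membrane-bound transcription factor of secretory cells that acts on type I collagen genes, had a high dose change of -1.06 (adjusted p = 0.013).

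Among 13 genes of propeptide cleavage and crosslinking, 4 passed as lower and 1 as higher at the high dose. Pcolce, the enhancer of procollagen C-proteinase, read from 0.06 through 0.40 to 0.79 in control and from -1.46 through -1.05 to -0.40 at the high dose. It was below control on all exposed arrays, with changes of -0.83, -1.27 and -1.42 (adjusted p = 0.0031, 3.4e-05 and 3.6e-06). The lysyl oxidases Loxl2 and Loxl3, which crosslink collagen, had high dose changes of -0.69 (adjusted p = 0.0063) and -0.67 (adjusted p = 5.9e-05). Of the procollagen N-proteinases, Adamts2 fell by 0.62 (adjusted p = 0.0065) and Adamts14 rose by 0.65 (adjusted p = 0.029) on the log2 scale.

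Of 8 collagen receptors with a probe, 2 were called, both integrin alpha chains and both lower at every dose. Itga11, the alpha chain of a receptor for fibrillar collagen, read from 0.17 through 0.60 to 1.23 in control and from -1.79 through -1.48 to -1.15 at the high dose. Its changes were -1.28 ± 0.16 (adjusted p = 6.9e-05), -1.74 ± 0.16 (adjusted p = 1.4e-06) and -2.11 ± 0.16 (adjusted p = 4.2e-08). Itga1 changed by -0.89, -1.18 and -1.22 (adjusted p = 0.0013, 5.4e-05 and 1.6e-05). It was dim, and well above background on 4 of 5 control and 2 of 6 high dose arrays.

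Among 11 genes of collagen breakdown and uptake, the high dose raised 3 past the call and lowered 1. Mmp13, an interstitial collagenase that cuts types I, II and III, read from -0.26 through -0.07 to 0.11 in control and from 3.14 through 3.34 to 4.11 at the high dose. It rose by 3.24 ± 0.18 (adjusted p = 3.0e-09), 3.63 ± 0.19 (adjusted p = 5.3e-10) and 3.53 ± 0.18 (adjusted p = 2.7e-10), or 9.44-, 12.4- and 11.5-fold. Mmp13 was near background in control cells, detected on 4 of 5 and well above background on 3 of 5 control arrays, so these folds are uncertain in size. Mmp3, a stromelysin that can activate procollagenases, rose by 1.94, 2.07 and 1.77 (adjusted p = 3.1e-05, 1.1e-05 and 2.6e-05). Ctsl, a lysosomal protease, rose by 0.81 (adjusted p = 0.0035) at the high dose, and Mmp2, a gelatinase, fell by 0.83 (adjusted p = 0.035). Ctsl and Mmp2 had no value on 1 array of each group, where the spot was marked as an outlier.

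**Figure D4:**
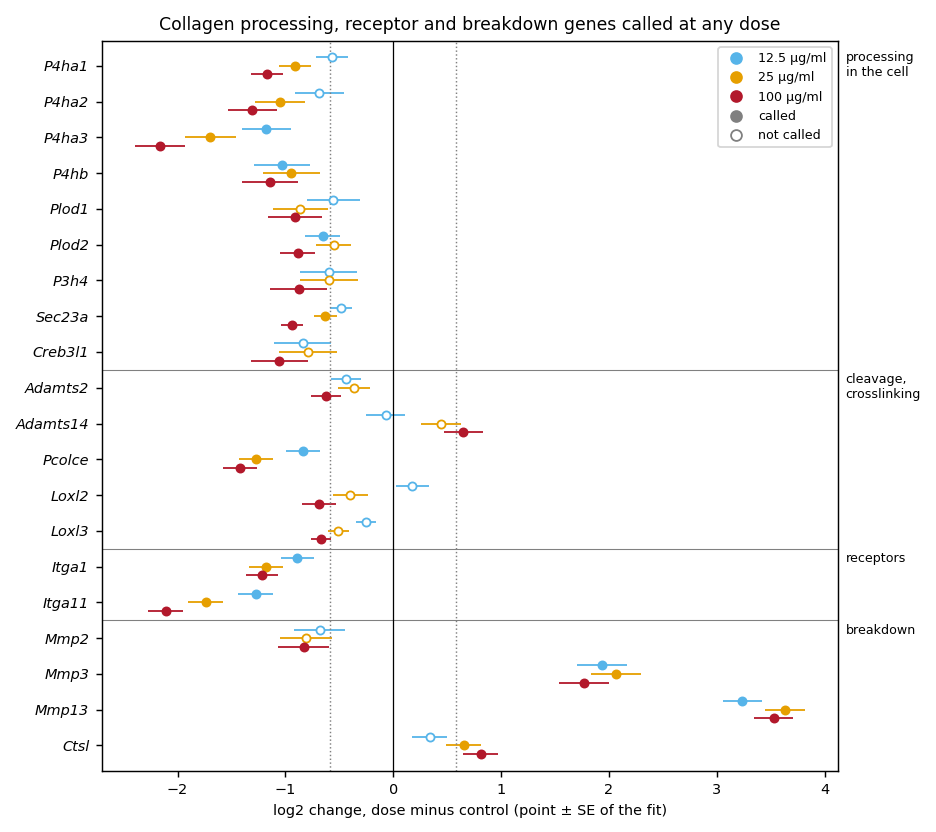
Change of the 20 processing, receptor and breakdown genes called at any dose. The x axis is the log2 change, dose minus control, with the standard error of the fit, and each gene has 1 point per dose, filled when called. Mmp3, Mmp13, Ctsl and Adamts14 lie to the right of 0 at the high dose and the other called genes to the left.

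Some fibroblast and mesenchymal markers were called lower in exposed cells. At the high dose 3 of 10 were called lower, Pdgfra (-1.53, adjusted p = 5.2e-09), Pdgfrb (-1.34, adjusted p = 1.1e-05) and Twist1 (-0.65, adjusted p = 0.020), and 0 higher. At that dose 4.49% of all genes and 6.44% of detected genes were called lower, and 3.85% of all genes higher. Shares at the other doses are given above, and a count of 1 gene in a list is too small to be told from them. The mean log2 ratio of the 10 markers ran from -0.39 to -0.09 over control, -0.90 to -0.28 over low dose, -1.15 to -0.49 over medium dose and -1.07 to -0.44 over high dose arrays. That of the 8 epithelial markers ran from -2.63 to -1.88 over control and -2.66 to -2.09 over high dose arrays, where 1 of 8, Krt7, was called lower. Each mean averages ratios of different genes to the reference, so the lists are compared between doses and not with each other. The means also include genes near background, namely Epcam, Cdh1 and Ocln, and Fap at the high dose. Of 5 alveolar type I markers with a probe 1 was called, Hopx, at -1.55, -1.62 and -2.19 in order of dose (adjusted p = 4.2e-05, 1.9e-05 and 2.7e-07). Of 7 alveolar type II markers 1 was called, Lamp3, which rose by 0.75 (adjusted p = 0.013) at the medium and 0.90 (adjusted p = 0.0016) at the high dose. No haematopoietic or endothelial marker was called by limma at any dose, and 0 of either list had an unadjusted p under 0.05 against control. In RNA of a whole culture, fewer cells that make a transcript and less of it per cell cannot be told apart. The part of these markers in the collagen changes was not tested.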

How the data were processed

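Total RNA of FE1 cells was hybridised to 22 Agilent 2-colour arrays on 5 slides, with sample in Cy5, reference in Cy3 and no dye swap. The deposited scanner files hold median pixel intensity per spot, not normalised, with Feature Extraction 10.7.3.1 named in the file headers. They also hold the log10 ratio of the scanner software, background and dye corrected, and the authors deposited a table of log2 ratios whose normalisation is not given in the sources used here.

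Here, log2 ratios of Cy5 over Cy3 median intensity were taken without background subtraction, dropping 3671 control spots and treating any spot with a non-uniformity or outlier mark as missing, and arrays were loess normalised. Of 55681 probes 26413 were named through RefSeq or Ensembl accessions (20018 genes), each gene by its brightest probe. Slide is the one in the array barcode. A probe counted as detected where Cy5 lay over 3 SDs above the mean of 308 negative control spots (both trimmed by 5%). Limma 3.58.1 in R 4.3.3 fitted group and slide to all 22 arrays, with Benjamini-Hochberg adjustment over all probes. The study used a shrunken F-test in another package, and limma stands in for it. The code was tested on simulated data.

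Members and lists were chosen with earlier results of these data known. Named are all members called against control, Col4a1 and Col4a2, and up to 5 genes per pathway list with the largest called change at the high dose. Cells were exposed in 3 separate experiments, per the methods, fewer than the 5 or 6 arrays of a group, and the labels do not tell which arrays share one, so p-values measure the spread between these samples, which may be technical. Arrays of the same replicate number deviated together in all 31 pairs (correlation of their deviations from group means 0.18 to 0.82, median 0.51). Slide was not removed from these deviations, and arrays of the same number share a slide except some of number 5. These correlations therefore do not separate pairing by number from slide. Slide 1 holds numbers 1 and 2 of every group, so there the 2 can be told apart. On it Col4a1, Col4a2 and Col6a2 were lower in number 1 than in number 2 in each group, while Col1a1 was not. The main model holds slide and not number, and the number was used as a block only in an alternative setting. The number of arrays limits the precision. Alternatives covered background, normalisation, source of the ratio, slide term, detection filter, fold, probe choice and left-out arrays and slides. Those for the pathway lists were chosen after seeing the data.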

Additional observations from a re-analysis of the deposited data

Results flagged for a closer look

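In 3 of 52 groups tested 1 array lay far from the rest of its group, and chance gives about 1 in 20. All 3 concern low dose replicate 1, which also stands apart over all genes. Col4a1 read 1.16 there while the remaining low dose arrays lay at 2.17 to 2.59, Col4a2 read 0.68 against 1.77 to 2.19, and Col6a1 read -1.44 against -0.40 to 0.15 (log2 ratio to the reference). For Col4a1 and Col4a2 replicate 1 was the lowest array of every group, so a low value there is not particular to the low dose array.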

How the results depend on the processing

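Of 28 calls of single collagen genes, 7 held under all 41 alternatives (Col1a1, Col1a2, Col3a1, Col6a1 and Col8a1 at the high dose, Col3a1 and Col6a1 at the medium dose), and none of the 52 gene results reversed. The count of collagen genes called was 6 at the low, 9 at the medium and 11 at the high dose. It was 2 and 3 at the low and medium dose after median centring, 1, 5 and 6 with a fold threshold of 2, and 10 at the low dose with no fold threshold, which follows from the threshold itself. Without slide 1 it was 3 at the low dose, with 8 fewer arrays. Leaving out 1 array gave 5 to 7, 8 to 10 and 11 to 13. At the high dose median centring lost the calls of Col4a5, Col4a6 and Col18a1. The count for high against low dose (2) was 0 after median centring, with no slide term, with only the 2 groups, with a fold threshold of 2 and without slide 1 or slide 2. It was 1 with the ratio of the scanner software, the series table, slide as a random block and without slide 3, 4 or 5, and 1 to 3 without 1 array. High against medium and medium against low stayed at 0. With the replicate block in place of slide the counts were 8, 9 and 11 against control and 3 for high against low, and no call other than those given in the report for Col16a1, Col6a2 and Col6a1 was gained. Pathway genes called lower were 3, 5 and 8 with a fold threshold of 2, 4 at the medium dose after median centring, and at the high dose 10 with no slide term and 10 without slide 2. Leaving out 1 array gave 4 to 8, 6 to 11 and 12 to 16. Pathway genes called higher at the high dose were 2 after median centring, with no slide term, with a fold threshold of 2 and without slide 1. Without 1 array the counts of higher genes were 2 at the low, 2 to 3 at the medium and 3 to 4 at the high dose. Unless stated, the cause was not tested. Signal at background limits what can be said of the 11 genes whose brightest probe was not detected, of which Col4a4 had another probe detected.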
